A study of Mus musculus with 6 samples.

Results

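The collagens are the genes of the triple-helical proteins of the extracellular matrix, and the 40 described here are all rows of the deposited table whose symbol has the form of Col, a type number, a and a chain number, out of 14016 rows in all. They were divided by collagen type into 11 fibrillar genes (types 1, 2, 3, 5, 11, 24 and 27), 7 basement membrane genes (types 4, 15 and 18), 5 beaded filament genes (type 6) and 17 others. The samples were quadriceps muscles taken 7 days after volumetric muscle loss, a surgical removal of part of the muscle, with saline and no ECM implant in the gap. There were 3 independent samples of WT mice, which the study's methods describe as young adult C57BL/6 females, and 3 of eosinophil-deficient ΔdblGATA mice, labelled as GATA-1 mutants, which carry a germline deletion in the Gata1 promoter and whose strain background, age and sex are not given in the sources used here. The study operated on both legs of a mouse, and the labels do not say which leg a sample came from. Poly(A) RNA with an ERCC spike-in was sequenced. The genotypes were not checked here, since Gata1 has no row in the table and a mean over both genotypes could not tell them apart. By flow cytometry, the study detected no eosinophils in the wounds of ΔdblGATA mice.

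The deposited table holds no value for a single sample. Its only column that is not the authors' own comparison of the genotypes is the mean log2 CPM over the 6 samples of both genotypes, so each level below is the authors' mean, without an SD or n, and no genotype comparison was made. CPM are counts scaled to a common library total, and a mean of log2 CPM corresponds to a geometric mean. Because a long transcript yields more reads than a short one at the same abundance, levels of different genes were compared after subtracting log2 of the transcript length in kb, which gives the level per kb. Means in plain log2 CPM are given only to show how near a gene lay to the lower limit of the table. The depth per sample is unknown, and differences between levels cannot be set against the spread between samples. In whole muscle, fewer cells of a type and less RNA per cell also cannot be told apart.

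Every collagen chain carries a stretch in which every triplet of residues opens with glycine, which lets a trio of chains wind into a triple helix. Fibrillar collagens form the tension-bearing fibrils of tendon, bone and the connective tissue around muscle fibres. Type IV collagen forms the sheet of basement membranes, including the one that wraps each muscle fibre, types XV and XVIII join basement membranes to the matrix around them, and type VI collagen forms beaded filaments between the basement membrane and the fibrils. After muscle injury, fibroblasts and fibro-adipogenic progenitors lay down a provisional collagen matrix before new fibres fill the gap.

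The glycine repeat can be read in the genes themselves. The first coding exon of 54 bases that lies within the repeat is given here for the chains with the highest levels, 5′ to 3′ on the coding strand, with capitals for the glycine codon that opens each triplet of codons. They were taken from the GENCODE M21 transcripts on GRCm38, where they lie at chr1:45325360-45325413 (coding exon 6 of Col3a1), chr11:94939904-94939957 (coding exon 8 of Col1a1) and chr6:4515481-4515534 (coding exon 8 of Col1a2), all on the plus strand.
Col3a1: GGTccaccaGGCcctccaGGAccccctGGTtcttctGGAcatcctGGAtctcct
Col1a1: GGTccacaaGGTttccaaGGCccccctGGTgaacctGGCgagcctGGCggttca
Col1a2: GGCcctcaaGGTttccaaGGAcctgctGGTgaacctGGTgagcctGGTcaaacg
Each of these exons holds 6 whole triplets.

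In type IV and type VI chains the repeat is broken. The stretch of Col4a1 given here runs over coding exons 7 to 10 (coding bases 433 to 570, spliced from chr8:11244386-11245219, minus strand) and crosses a break of 10 codons. That of Col6a1 runs over coding exons 22 to 24 (coding bases 1495 to 1608, spliced from chr10:76714414-76715021, minus strand) and crosses a break of 2 codons. Capitals again mark the glycine codons that open a triplet, and the run of lower case in the middle is the break with the end of the triplet before it.
Col4a1: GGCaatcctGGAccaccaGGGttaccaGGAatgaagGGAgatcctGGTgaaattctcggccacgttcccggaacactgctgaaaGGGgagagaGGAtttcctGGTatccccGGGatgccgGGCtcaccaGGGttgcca
Col6a1: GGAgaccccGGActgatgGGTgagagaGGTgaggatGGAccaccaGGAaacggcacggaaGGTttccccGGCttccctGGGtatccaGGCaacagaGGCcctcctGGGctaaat

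Collagen transcripts in these muscles were dominated by types I and III. Col3a1, the single chain of type III collagen, had the highest level per kb of the 40 genes at 9.27 on the log2 scale, followed by both chains of type I collagen, Col1a1 at 9.10 and Col1a2 at 9.01. Per kb they ranked 66th, 76th and 82nd among the 13938 genes of the table for which a transcript length was found. Together they made up 73.2% of the summed collagen level, in which the levels per kb of all 40 genes were added on a linear scale. The 10 highest genes made up 93.0% of that sum and the 20 lowest 0.824%. After Col1a2 came a drop of 2.13 on the log2 scale to the next gene, Col6a1, which stood at 6.89.

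By class, the fibrillar genes made up 79.4% of the summed collagen level, the beaded filament genes 11.6%, the basement membrane genes 5.64% and the others 3.44%. By type, type I made up 46.3%, type III 26.9%, type VI 11.6%, type V 5.68% and type IV 4.05%, and every other type was under 1%. Against all genes, whose median level per kb was 2.28, 17 of the 40 collagens lay above the median and 23 below it. Of the 9 collagens in the top 10% of all genes, 5 were fibrillar, 3 beaded filament and 1 basement membrane. The 7 in the lowest 10% were 1 of 11 fibrillar, 2 of 7 basement membrane, 1 of 5 beaded filament and 3 of 17 other genes. The collagens as a whole made up 0.463% of the sum per kb over all genes and, without length, 1.43% of the summed CPM.

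**Figure D1:**
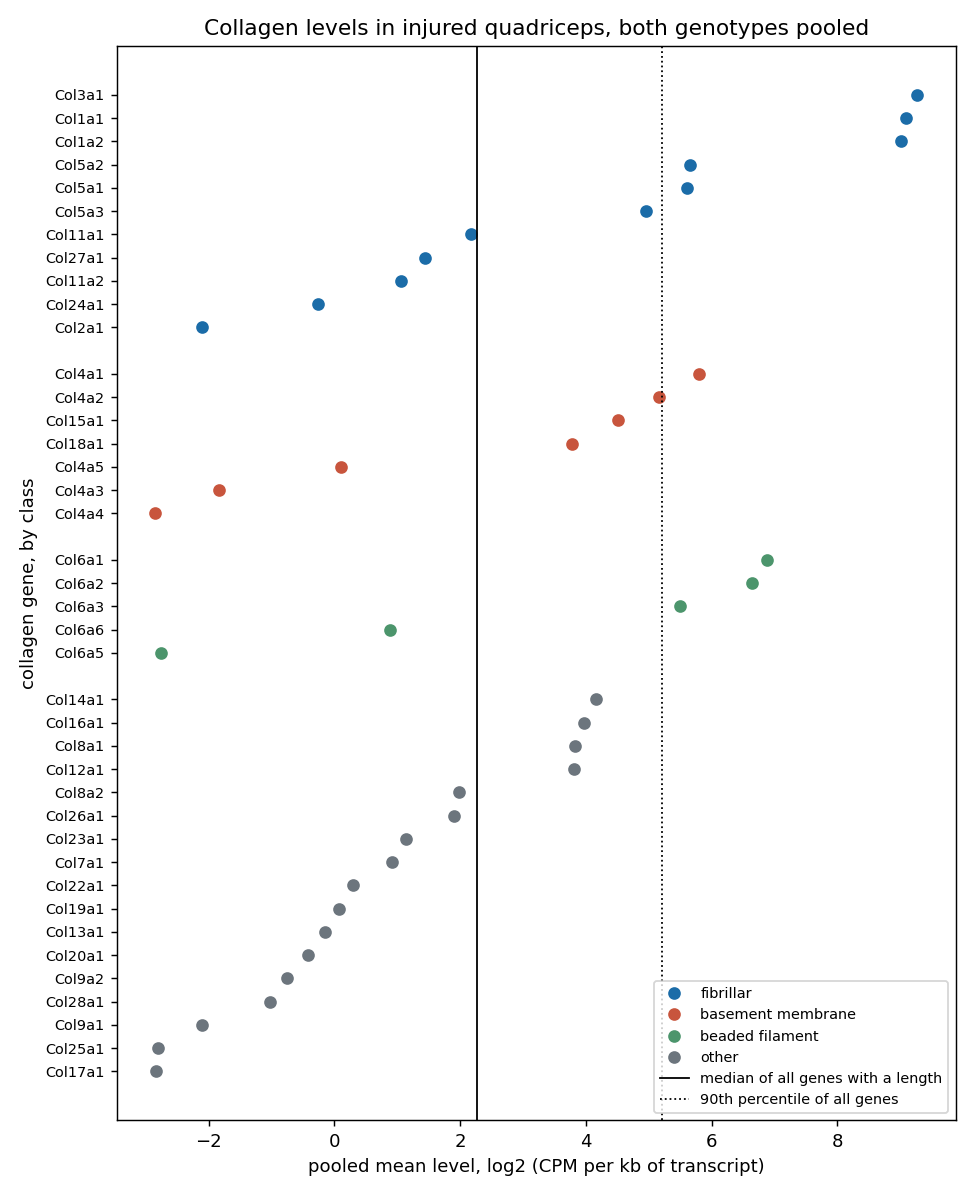
Each point is the authors' mean level of 1 collagen gene over the 6 samples, in log2 CPM per kb of transcript, grouped and coloured by class, with the median of all genes (2.28) as a solid line and their 90th percentile (5.22) as a dotted line. Col3a1, Col1a1 and Col1a2 stand between 9.01 and 9.27, apart from all other collagens, and each class holds genes from above the median down to under 0.

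The fibrillar class spanned the widest range, from Col3a1 down to Col2a1 at -2.11, a difference of 11.38 on the log2 scale. Type V collagen, which co-assembles with type I and sets the width of its fibrils, came after types I and III. Its chains had levels per kb of 5.66 for Col5a2, 5.62 for Col5a1 and 4.96 for Col5a3, so that Col3a1 was 12.3-fold above Col5a2, and between 10.3-fold and 29.8-fold above it over the other definitions of length. The 29.8-fold came with the mean length of the coding transcripts, which for Col3a1 is 2295 bases, less than its coding sequence of 4392 bases. Type XI collagen plays the part of type V in cartilage fibrils, and its genes Col11a1 at 2.17 and Col11a2 at 1.06 lay just under and well under the median of all genes. Col5a1 was 10.9-fold above Col11a1. Col27a1 stood at 1.44 and Col24a1 at -0.26, both members of a branch of the fibrillar family with shorter helices.

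Col2a1 encodes the chain of type II collagen, the main fibril of cartilage. Its mean over the 6 samples was 0.25 log2 CPM, and it was the only fibrillar gene under 1 log2 CPM. Of type IX collagen, which coats type II fibrils, Col9a2 had a mean of 0.78 log2 CPM and Col9a1 one of -0.17, while Col9a3 and Col10a1, a collagen of hypertrophic cartilage, were not listed. Among 8 markers of chondrocytes, Matn1, Hapln1 and Cnmd were not listed and the other 5 lay between -1.88 (Matn3) and 1.69 (Chad) per kb, all below the median of all genes. Of 5 osteoblast markers, Bglap and Ibsp were not listed and the other 3 were below that median, with Sp7 lowest at -3.80 and Alpl highest at 1.28.

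Among basement membrane collagens, Col4a1 at 5.81 and Col4a2 at 5.16 had the highest levels per kb. These chains form the type IV network found in nearly every basement membrane. The chains of the more restricted networks, best known from kidney, lung and eye, were far lower, with Col4a5 at 0.10, Col4a3 at -1.83 and Col4a4 at -2.85, the lowest level of all 40 genes, and Col4a6 not listed. That rank depended on the length used, since with the coding length Col4a4 at -1.85 lay above Col6a5 at -2.53 and Col17a1 at -2.49. Col4a1 was 199-fold above Col4a3, and Col4a2 was 33.3-fold above Col4a5. Col15a1 at 4.51 and Col18a1 at 3.79, the latter the gene whose product gives rise to endostatin, lay between these groups and above the median of all genes.

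The type IV genes lie in pairs with their starts facing each other. On GRCm38 the annotated spans of Col4a1 (chr8:11198423-11312826) and Col4a2 (chr8:11312805-11449287) overlap by 22 bases, those of Col4a4 (chr1:82448423-82586849) and Col4a3 (chr1:82586921-82722059) are 71 bases apart, and those of Col4a6 and Col4a5 on chromosome X are 1308 bases apart. Within the first pair the level per kb differed by 0.65 on the log2 scale and within the second by 1.02, whereas Col4a1 and Col4a3 differed by 7.64. With the mean length of the coding transcripts the differences within these pairs were 1.90 and 1.92. That mean length is shorter than the coding sequence for Col4a1 (2777 against 5007 bases) and for Col4a3 (4590.5 against 5007 bases). Col4a3 and Col4a4 had low means of 1.26 and 0.48 log2 CPM, and of the third pair only Col4a5 was listed. Whether the layout of the genes bears on their levels was not tested. Reads of Col4a3 are less certain than the others, since 5.92% of its words of 31 bases occur also in an antisense gene, C430014B12Rik.

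In the beaded filament class the chains of the common form of type VI collagen were high, with Col6a1 at 6.89, Col6a2 at 6.65 and Col6a3 at 5.49 per kb. Type VI collagen of muscle surrounds the fibres and the satellite cell niche. The chains that can take the place of the third were lower, with Col6a6 at 0.89 and Col6a5 at -2.76, and Col6a4 was not listed. Col6a3 was 24.4-fold above Col6a6, and Col6a6 12.5-fold above Col6a5. Col6a5 and Col6a6 share words of 31 bases, 4.05% of those of Col6a5 and 4.97% of those of Col6a6 occurring also in other genes, so that a small part of their reads could be exchanged between them.

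The 17 other collagens ranged from 4.16 for Col14a1 to -2.84 for Col17a1, and 4 of them lay above the median of all genes. The fibril-associated collagens, which bind to the surface of fibrils and do not form fibrils alone, made up 8 of the 17. Of these, Col14a1, Col16a1 at 3.98 and Col12a1 at 3.81 were above the median of all genes and the other 5 below it, from Col22a1 at 0.29, a collagen of the muscle-tendon junction, through Col19a1 at 0.07 and Col20a1 at -0.42 to Col9a2 at -0.76 and Col9a1 at -2.11. Col8a1, a short network-forming collagen of vessel walls and of the matrix under endothelium, was the fourth above the median at 3.82, and its partner Col8a2 stood at 1.99.

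The transmembrane collagens, which sit in the plasma membrane with their helix outside the cell, were all below the median of all genes. Col23a1 stood at 1.14, Col13a1, which is concentrated at the neuromuscular junction, at -0.15, Col25a1, needed for motor nerves to reach muscle, at -2.81, and Col17a1, a component of the hemidesmosomes of skin, at -2.84. Col7a1, the chain of the anchoring fibrils of skin, was higher than Col17a1 at 0.91. Of 6 markers of keratinocytes, Krt5, Krt14 and Krt1 were not listed, and Trp63 at 1.56, Krt10 at 0.93 and Dsp at -4.90 were below the median. Col26a1 stood at 1.90 and Col28a1 at -1.02.

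A gene was kept in the table if it exceeded 1 CPM in at least 3 samples. A mean under 1 log2 CPM was found for 7 of the 40 collagens, against 15.1% of all genes, and 3 of these, Col9a1 at -0.17, Col25a1 at -0.07 and Col17a1 at -0.35, a mean under 0 log2 CPM. The remaining 4 were Col4a4 at 0.48, Col6a5 at 0.46, Col2a1 at 0.25 and Col9a2 at 0.78. A mean under 0 log2 CPM was found for 8.55% of all genes listed. For such genes the mean can hide samples on both sides of the limit, and the 3 samples above it can all be of the same genotype. The order of these genes among each other is not to be relied on, since neighbours such as Col25a1, Col17a1 and Col4a4 differed by 0.02 per kb.

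Chains that assemble into the same trimer were compared in 12 pairs, of which 10 had both genes listed. Within 5 pairs the level per kb differed by less than 1 on the log2 scale, but which pairs these were depended on the definition of length. Col1a1 and Col1a2, Col5a1 and Col5a2, and Col6a1 and Col6a2 stayed within 1 under all 4 definitions, Col11a1 and Col11a2 under none, and 6 pairs moved across that limit. Col1a1 was 1.06-fold of Col1a2, the partner it outnumbers in the common type I trimer. Col6a1 was 1.18-fold of Col6a2. Col4a1 was 1.57-fold of Col4a2, a log2 difference of 0.65 that became 1.90 with the mean length of the coding transcripts. Col5a1 and Col5a2 differed by -0.04 on the log2 scale, and Col5a1 was 1.57-fold of Col5a3. In the main definition larger differences were seen for Col6a1 over Col6a3 (2.63-fold), Col11a1 over Col11a2 (2.17-fold), Col4a3 over Col4a4 (2.03-fold), Col8a1 over Col8a2 (3.56-fold) and Col9a2 over Col9a1 (2.54-fold). The sign of the differences of Col1a1 and Col1a2, of Col5a1 and Col5a2 and of Col6a1 and Col6a2 changed with the definition of length, so that these pairs have no settled order. For Col1a1 and Col1a2 it changed only with the mean length of the coding transcripts. That mean is 3099 bases for Col1a2, shorter than its coding sequence of 4116 bases, because short annotated transcripts enter it. The difference of Col6a1 and Col6a3 kept its sign but became 0.09 on the log2 scale without a length correction.

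**Figure D2:**
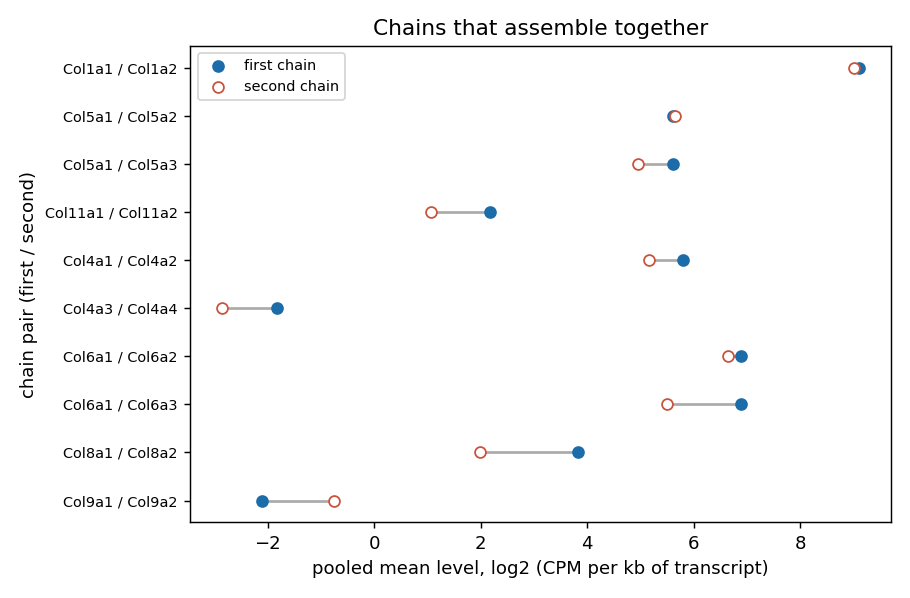
For each of the 10 pairs of partner chains, the filled point is the level of the first chain and the open point that of the second, both as the authors' mean in log2 CPM per kb of transcript. The pairs Col1a1/Col1a2 and Col5a1/Col5a2 lie nearly on top of each other, while Col8a1 exceeds Col8a2 by 1.83.

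The fibrillar genes held the largest share under each way of taking length into account, while the beaded filament share moved by more than that of the basement membrane genes. With the coding length, the mean length of the coding transcripts or no length at all, the fibrillar share lay between 78.4% and 82.7%. The beaded filament share lay between 7.89% and 12.2% and that of the basement membrane genes between 5.36% and 6.27%. The order of the 40 genes by level was nearly unchanged, with Spearman's rho against the main order of 0.984 to 0.992 across genes that are not independent replicates. A rho near 1 was largely given in advance, since the same mean log2 CPM enters every order. The levels per kb span 12.1 on the log2 scale, while the longest coding transcripts run only from 2781 to 11511 bases. Of the 10 highest genes, 10, 9 and 10 were also among the 10 highest with the coding length, the mean length and no length.

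**Figure D3:**
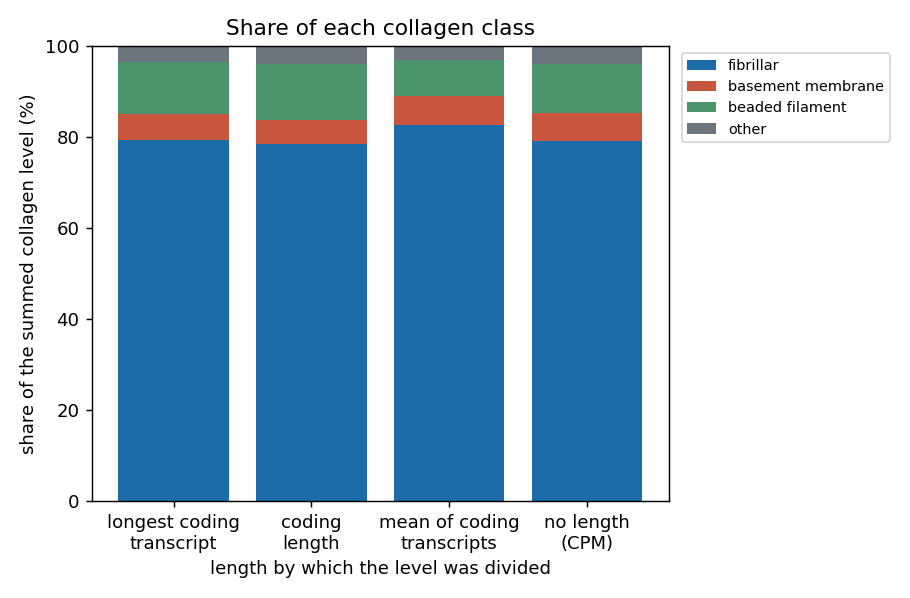
Stacked bars give the percent of the summed collagen level that falls to each class, for the level divided by the longest coding transcript, by its coding length, by the mean length of the coding transcripts, or not divided by length. The fibrillar share (bottom segment) stays between 78.4% and 82.7% in all 4 bars.

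The families behind these classes are themselves distinguished by how long and how broken their helices are, and the gene structure is given here as a description of that. Runs of at least 6 triplets opened by a glycine codon were located in the longest coding transcript of each gene. In all 11 fibrillar genes the longest run was between 216 and 344 triplets, with a median of 338. In the basement membrane genes it was between 30 and 66 triplets, in the beaded filament genes between 37 and 87, and in the others between 23 and 113. The number of runs per gene was 2 or 3 in the fibrillar class but 9 to 27 in the basement membrane class, with the largest number in Col4a4. The share of the protein that lies in such runs ranged from 7.63% in Col12a1, a very long protein made largely of globular domains, to 85.0% in Col9a2, and was at most 35.4% in the beaded filament class.

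Exon lengths did not divide in the same way. Of 509 fibrillar coding exons that lie wholly within a run, 59.3% were 54 bases long and 99.8% a multiple of 9 bases, so that nearly every such exon holds whole triplets. In the basement membrane class 9.16% of 131 such exons were 54 bases long and 84.0% a multiple of 9. In the beaded filament class 16.4% of 73 were 54 bases long and all were a multiple of 9, and among the others 33.3% of 324 were 54 bases long and 96.3% a multiple of 9. The others were a mixture, with 54 bases in 54.4% of 169 such exons of the 8 fibril-associated genes and in 10.3% of 155 of the remaining 9 genes. Col22a1 had 54 bases in 63.6% of 44 such exons and Col9a1 and Col9a2 each in 60.9% of 23, at the level of the fibrillar genes, and Col16a1 in 30.3% of 33. The genes Col8a1 and Col8a2 have only 2 coding exons each, and none of these lies wholly within a run.

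Levels were also set beside the length of the repeat. Across the 40 genes, which share the same libraries, Spearman's rho with the level per kb was 0.311 for the longest run, -0.002 for the share of the protein in runs and 0.103 for the number of residues. Among the fibrillar genes with runs of nearly the same length, Col3a1 with 344 triplets and Col2a1 with 339 were 2663-fold apart in level, and 6304-fold apart with the mean length of the coding transcripts. Both folds are rough, since the mean of Col2a1, 0.25 log2 CPM, lay near the lower limit of the table. The larger also rests on the mean transcript length of Col3a1, 2295 bases, which is less than its coding sequence of 4392 bases.

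**Figure D4:**
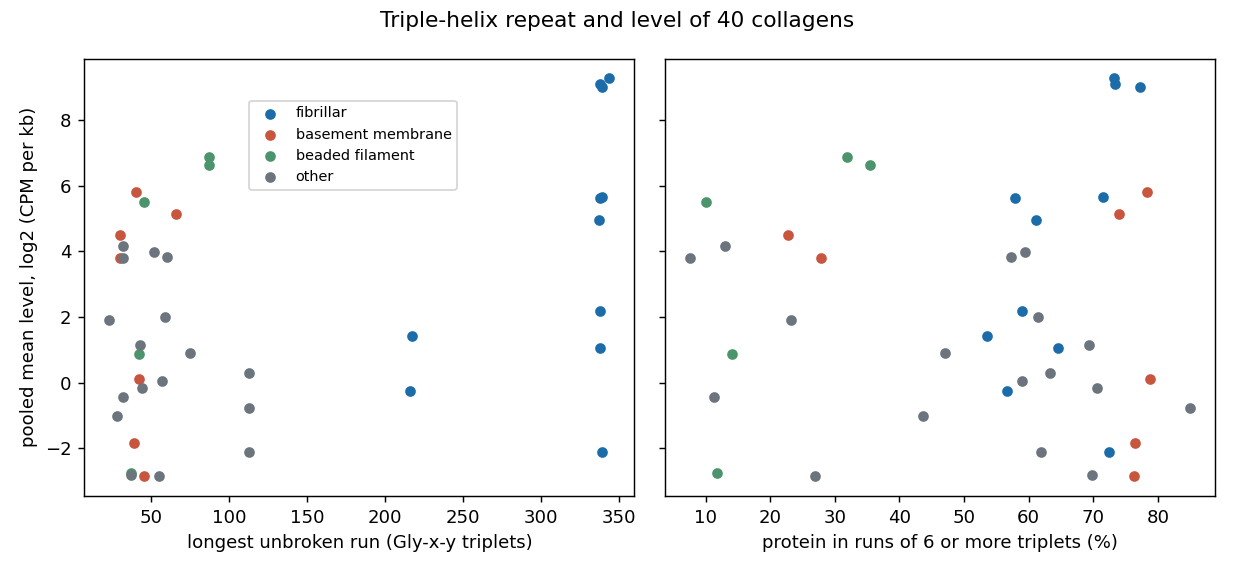
Each point is 1 of 40 collagens, with the authors' mean level in log2 CPM per kb on the vertical axis, against the longest unbroken run of triplets opened by glycine (left) or the percent of the protein in runs of 6 or more triplets (right), coloured by class. The fibrillar genes stand to the right of all others in the left panel, at 216 triplets or more, and there span levels from -2.11 to 9.27.

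Lists of genes that handle collagen were read in the same way, and being listed means only that a gene passed the CPM limit of the table. All 18 genes of a list for folding and modification in the endoplasmic reticulum were listed, 15 of them above the median of all genes, with a list median of 4.26 per kb. Serpinh1, which encodes the collagen chaperone HSP47, was highest at 7.34. P4hb at 6.92 and Ppib at 6.71, subunits or partners of the prolyl hydroxylases, followed, and Colgalt2, which adds galactose to hydroxylysine, was lowest at 0.70. With the coding length P3h2 at 1.818 was just under Colgalt2 at 1.823. The lysyl hydroxylase genes stood at 4.68 for Plod1, 4.30 for Plod3 and 3.56 for Plod2.

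Of 13 genes for procollagen processing and cross-linking, 12 were listed and 7 lay above the median of all genes, with a list median of 3.08. Pcolce, an enhancer of the removal of the C-terminal propeptide, was highest at 6.36, while Bmp1, the protease it enhances, stood at 3.84. The cross-linking oxidases Loxl1 at 5.33, Lox at 4.65 and Loxl2 at 4.33 were above the median and Loxl4 at -1.25 below it. With the coding length Lox at 6.59 lay above Loxl1 at 6.19 and Pcolce at 6.57, so their order is not settled. Adamts2, which removes the N-terminal propeptide, stood at 3.68 and its relative Adamts3 at -1.33, the lowest of the list, and Tll2 was not listed. Of 7 genes for collagen breakdown, the gelatinase gene Mmp2 at 6.11, the membrane-type metalloproteinase gene Mmp14 at 5.84 and the cathepsin gene Ctsk at 5.57 were in the top 10% of all genes, Mmp13 at 0.71 was lowest, and Mmp8 was not listed. With the coding length Mmp14 at 6.80 lay above Mmp2 at 6.74.

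Of 10 collagen receptor genes, 9 were listed and 5 lay above the median of all genes. Itgb1, the shared beta subunit, was highest at 6.66. Of the collagen-binding alpha subunits Itga11 stood at 2.43, Itga1 at 1.50, Itga10 at -0.36 and Itga2, the lowest of the list, at -1.52. The uptake receptor gene Mrc2 was at 3.75, the receptor kinase genes Ddr1 and Ddr2 at 3.24 and 2.72, and the platelet receptor gene Gp6 was not listed. With the coding length Ddr2 at 4.47 lay above Ddr1 at 3.74, and Itga1 at 3.13 above Itga11 at 2.90. The 16 basement membrane partners were all listed, with 8 above the median. They ran from the nidogen gene Nid1 at 5.28, the laminin genes Lamc1 at 4.87 and Lamb2 at 4.83 and the perlecan gene Hspg2 at 4.83 down to Lama1 at -5.05. Col4a1 lay above and Col4a2 just under Nid1.

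The muscle label was checked with 8 genes of muscle fibres, all of which were in the top 10% of all genes, from Acta1 at 13.77 to Myh2 at 7.96 per kb. The 6 fibroblast markers were all above the median of all genes, from Postn at 8.22 and Dcn at 8.07 to Pdgfra at 2.95. Of 5 tenocyte markers 4 were above it, from Thbs4 at 6.98, Fmod at 5.31, Tnmd at 4.66 and Scx at 3.84 to Mkx at -0.08. Endothelial markers lay between 2.19 and 4.63 per kb, macrophage markers between 3.01 and 8.72, adipocyte markers between -0.63 and 8.05 and Schwann cell markers between -1.50 and 1.60. The part of each cell type in the collagen levels was not tested.

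**Figure D5:**
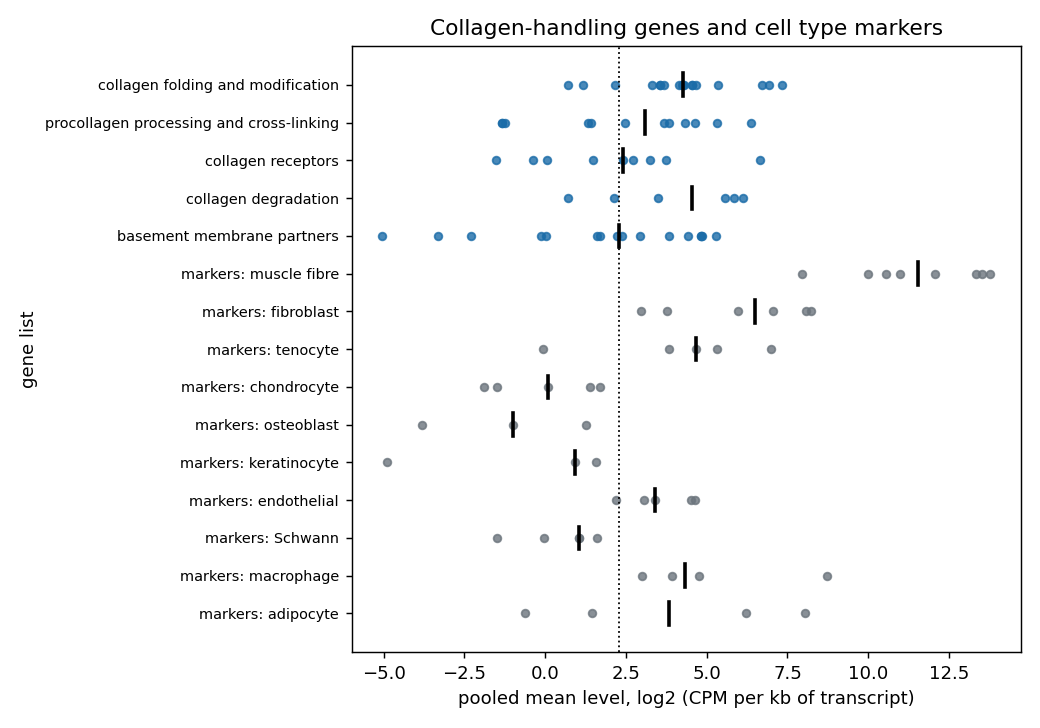
Each point is the authors' mean level of 1 gene in log2 CPM per kb, by list, with the list median as a bar and the median of all genes (2.28) as a dotted line. Genes that handle collagen are in the upper 5 rows, where folding and modification has a median of 4.26, and cell type markers in the lower 10, where chondrocyte, osteoblast, keratinocyte and Schwann cell markers all lie under the dotted line.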

How the data were processed

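Bulk RNA of 6 injured quadriceps samples, 3 WT and 3 ΔdblGATA, was sequenced, and samples were grouped by their titles. The authors pseudoaligned the reads with kallisto, whose version and index are not given in the sources used here. Their gene table was limited to genes exceeding 1 CPM in 3 or more samples, and its log values were scaled by TMM and fitted with limma. The submitters' processing notes name GRCm39 (mm39). The log2 values used here are the authors' deposited mean log2 CPM over all samples. The other 5 columns of numbers in the table hold the authors' comparison of the genotypes (fold change, moderated t, p-values and log odds) and were not used, so the planned genotype fit was not made and no p-value is given. Depth per sample is unknown.

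For lengths the GENCODE M21 annotation of GRCm38 was used, in which 13458 symbols were found as written and 480 by an older name, so that 99.4% of rows had a length, that of the longest coding transcript, or of the longest transcript where none is coding. 1 row has no symbol. Sums were taken over 2 to the power of the level per kb. Coding sequences were translated with Biopython 1.88, and words of 31 bases were compared with all transcripts on both strands. The search for runs of triplets was tested on a made-up coding sequence. All 40 collagens are accounted for. Named with values are the highest and lowest gene of each class, the chains of the pairs, the 10 highest genes and those under 1 log2 CPM, and, chosen after their values were seen, the remaining collagens, the subgroups of the others, the folds between genes of different pairs and further genes of the lists. Genes and lists were chosen with earlier results of these data known.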

Additional observations from a re-analysis of the deposited data

How the results depend on the processing

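No paired analysis was possible because single samples have no values in the table, and for the same reason leaving out each sample in turn and limma with or without a trend were not run. The unknown depth and the pooled mean limit every value, most of all for the 7 collagens under 1 log2 CPM. Dividing by annotated transcript lengths assumes that the annotated transcript is the one expressed. The mean length of the coding transcripts also counts short annotated transcripts. For Col1a2, Col3a1 and Col4a1, among others, it is shorter than the coding sequence, while Col1a1 has the same length of 5930 bases by mean and by longest transcript. Values with the mean length carry this limit.

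With the coding length the shares of the fibrillar, basement membrane, beaded filament and other collagens were 78.4%, 5.36%, 12.2% and 4.01%, with the mean length of the coding transcripts 82.7%, 6.27%, 7.89% and 3.20%, and without length 79.2%, 6.10%, 10.8% and 3.91%, against 79.4%, 5.64%, 11.6% and 3.44%. Leaving out members under 1 log2 CPM made the share of the others 3.39%, and counting types XV and XVIII among the others made it 5.03% and that of the basement membrane 4.05%. The difference of Col1a1 and Col1a2 became -0.70 on the log2 scale with the mean length, that of Col5a1 and Col5a2 became 0.0070 with the coding length, 0.79 with the mean length and 0.30 without length, and that of Col6a1 and Col6a2 became -0.079 with the coding length. In 7 of the 10 pairs no setting changed the sign. Differences of less than 1 on the log2 scale were found in 5 of 10 pairs with either length and in 7 without length. For Col4a3 and Col4a4 the difference of 1.02 became 0.79 with the coding length and 0.78 without length, for Col5a1 and Col5a3 that of 0.65 became 1.03, 1.48 and 1.11, and for Col8a1 and Col8a2 that of 1.83 became 0.94 with the mean length. Folds between genes of different pairs, an alternative chosen after seeing the data, moved too. Col1a2 over Col6a1 was 4.37-fold and became 7.54-fold with the mean length, and Col14a1 over Col12a1 was 1.27-fold and became 0.713-fold without length. Some orders among the genes of the lists also changed with the coding length, such as that of Lox and Loxl1. The cause was not tested.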
